A study of Mus musculus with 6 samples.

Results

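A630019I02Rik is a mouse gene for a long noncoding RNA, listed under Entrez number 408254 and located on chromosome 13 of the genome build GRCm38 (mm10). It was chosen because its level differed between rIL-31-treated and saline-treated skin in these libraries, so that difference is described here and not tested. It is 1 of the 24061 genes in the deposited table. It was set beside the 8 genes of the table that lie within 500 kb of either end of it and that were chosen by position alone. Of the 20 other genes annotated in that window by RefSeq, the remaining 12 (6 lncRNAs, 5 pseudogenes and 1 protein-coding gene) are not listed in the table under their Entrez numbers.

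The samples were dorsal skin of C57BL/6 mice. The 3 rIL-31 samples came from animals given 20 μg of recombinant IL-31 in 50 μl of saline by intradermal injection each day for 14 days, and the 3 control samples from animals given 50 μl of saline in the same way. The study's methods describe female mice at 8 to 14 weeks of age. Whether each sample was a separate mouse is not stated, so p-values reflect sample-to-sample spread, which may be technical. Levels are given as CPM, the read counts scaled to a common library depth after TMM normalization, which evens out differences in library composition. Log2 fold changes, rIL-31 over saline, are given with a standard error (SE). False discovery rates (FDR) were adjusted over all 16371 genes with enough counts, using edgeR's quasi-likelihood test. The words rose and fell are kept for genes with an FDR below 0.1, apart from A630019I02Rik itself, for which they only describe the values.

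Total counts ranged from 23122953 to 25552684 in the rIL-31 libraries and from 21710679 to 23963685 in the saline libraries. Markers of skin were present in all libraries, the 5 keratinocyte markers summing to between 11044 and 15040 CPM in rIL-31 samples and between 6933 and 7590 CPM in saline samples. Of the marker lists, 4 of 5 keratinocyte, 3 of 3 mast cell and 1 of 3 Schwann cell genes rose, against 4.51% of all tested genes. In the other direction 4 of 4 melanocyte genes, 1 of 5 skeletal muscle genes and 1 of 2 genes of other tissues fell, against 3.73% of all tested genes. No gene passed the test in the lists of fibroblasts, hair follicle, adipocytes, macrophages, T cells and endothelium. Nnt, a mitochondrial transhydrogenase gene on the same chromosome that differs between C57BL/6 substrains, averaged 35.7 ± 5.47 CPM in rIL-31 samples and 31.4 ± 1.66 CPM in saline samples (SD, n = 3 each), with an FDR of 0.514 in edgeR's quasi-likelihood test.

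Long noncoding RNAs are transcripts without a known protein product. Antisense RNAs are those read from the opposite strand of another gene, and some of them act on the gene they overlap, as Tsix does on Xist and Kcnq1ot1 on its imprinted neighbours, while most have no assigned role. The gene opposite A630019I02Rik is Cmya5, which encodes myospryn, a large protein of striated muscle that binds desmin and anchors protein kinase A. Whole skin of the mouse back holds a thin muscle layer, the panniculus carnosus, beside epidermis, hair follicles and dermis. No function of A630019I02Rik is given in the sources used here.

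A630019I02Rik lies mostly across an exon of Cmya5. It runs from 93094833 to 93098968 on the + strand and Cmya5 from 93040713 to 93144724 on the - strand. Its single annotated transcript in GENCODE has 4 exons of 331, 26, 197 and 2436 bases, 2990 bases in all. Exons 1 to 3 and 1897 bases of exon 4 fall within exon 2 of Cmya5, which is 9310 bases long (from 93089120 to 93098429). In total 2451 bases, or 82.0% of the transcript, are shared with Cmya5 on the opposite strand, and the last 539 bases lie outside any Cmya5 exon, in its intron 1. A read from the shared part can be assigned to a gene only if strand was used, and whether the counting did so is not stated. The values of A630019I02Rik and Cmya5 are therefore uncertain as a division of reads between the pair. In a search of all GENCODE transcripts with blastn, neither the whole transcript nor its last 539 bases matched any other gene than Cmya5 at an E-value of 1e-05.

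**Figure D1:**
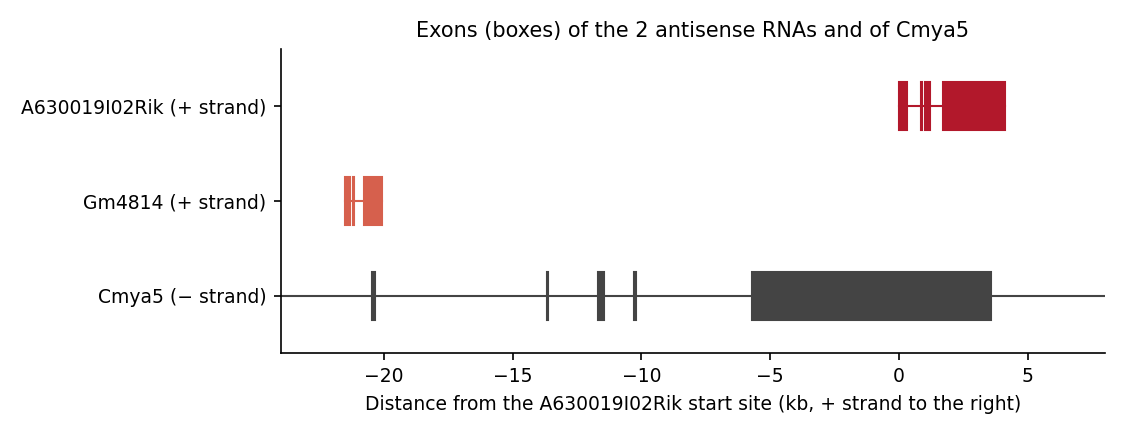
Exons (boxes) of A630019I02Rik, Gm4814 (its longer transcript) and Cmya5, plotted by distance in kb from the A630019I02Rik start site, with the strand beside each name. The first 3 exons of A630019I02Rik and most of its exon 4 stand over exon 2 of Cmya5, and 539 bases at its 3′ end extend past it.

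The promoter and the end of the overlap are shown because they carry this arrangement. The first sequence is the RefSeq promoter window of GRCm38.p6, 250 bases before and 50 bases from the start (chr13:93094583-93094882, + strand), with the first 50 transcribed bases in capitals. All 300 of these bases also belong to exon 2 of Cmya5, read from the other strand. The other sequence is 180 bases of the GENCODE transcript (chr13:93098370-93098549, + strand) across the boundary, with the 120 bases that lie outside Cmya5 exons in capitals.
A630019I02Rik promoter: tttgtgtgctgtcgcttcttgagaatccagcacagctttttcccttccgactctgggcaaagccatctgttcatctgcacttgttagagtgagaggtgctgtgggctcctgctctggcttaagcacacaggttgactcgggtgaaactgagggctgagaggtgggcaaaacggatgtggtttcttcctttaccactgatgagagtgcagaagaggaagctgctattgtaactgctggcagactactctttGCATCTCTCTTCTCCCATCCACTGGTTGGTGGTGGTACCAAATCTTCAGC
A630019I02Rik transcript at the end of Cmya5 exon 2: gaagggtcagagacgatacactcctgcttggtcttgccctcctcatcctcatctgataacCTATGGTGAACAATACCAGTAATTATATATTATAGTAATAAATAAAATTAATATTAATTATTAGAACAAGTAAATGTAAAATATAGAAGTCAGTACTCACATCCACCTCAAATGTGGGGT
The promoter window had 50.7% G and C, and the whole transcript 48.4%. On either strand it held no match to TTCNNNGAA, a motif of the STAT family that acts below the IL-31 receptor, which 8.30% of 32851 promoter windows of the same length held. The AP-1 motif TGANTCA, held by 7.81% of these windows, was absent too, as was the TATA box, searched as TATAAA and held by 13.6%. The palindromic core of the motif of MEF2, a factor of muscle, was also absent and was held by 3.69%. The absence of a match says only that these letters are not in this window.

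A630019I02Rik was nearly absent from rIL-31-treated skin and readily counted in saline-treated skin. It had 12, 18 and 25 counts in the rIL-31 libraries, against 546, 475 and 387 counts in the saline libraries. All rIL-31 libraries lay far below all saline libraries, which reflects how the gene was chosen. The groups did not overlap in 25.7% of all tested genes, and in 12.9% with rIL-31 lower. As levels, these were 0.508, 0.752 and 0.972 CPM in rIL-31 samples, with 95% exact Poisson intervals, which cover counting error only, from 0.262 to 0.887, from 0.446 to 1.19 and from 0.629 to 1.44 CPM. The saline samples had 22.9, 20.6 and 18.0 CPM, with intervals from 21.1 to 24.9, from 18.8 to 22.5 and from 16.3 to 19.9 CPM. The lowest saline sample was 18.6 times as high as the highest rIL-31 sample. Intervals overlapped between some libraries of a group and never between the groups. The group means were 0.744 ± 0.232 CPM in rIL-31 samples and 20.5 ± 2.45 CPM in saline samples (SD, n = 3 each), which is 27.6-fold lower in rIL-31 samples and a fitted log2 fold change of -4.77 (SE 0.25). Per kb of its full annotated length the level was 0.249 CPM in rIL-31 samples and 6.87 CPM in saline samples. The RNA did not fall to 0 in any library, as the rIL-31 libraries held 55 counts in sum, against 1408 counts in the saline libraries.

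Since the gene was chosen for this difference, its place among all genes is a description. The log2 fold change was the 3rd lowest of the 16371 genes tested and the lowest of the 15213 with a mean of at least 1 CPM. The genes next to it in that order were weakly expressed. Dkk4, a secreted Wnt antagonist, had 0 CPM in each rIL-31 sample, against 0.504, 0.477 and 0.56 CPM in the saline samples. Sftpc, a surfactant gene of the lung, had 0.0846, 0 and 0 CPM in rIL-31 samples, against 1.01, 1.47 and 0.793 CPM in saline samples. Rnf112, a ring finger protein gene, had 0, 0 and 0.0778 CPM in rIL-31 samples, against 0.882, 0.781 and 0.886 CPM in saline samples. In saline-treated skin none of these genes exceeded 1.47 CPM in any sample, well under the 18.0 CPM of A630019I02Rik in its lowest saline sample.

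The marker lists of several cell types moved in the same samples, and their part in the fall of A630019I02Rik was not tested. The 5 skeletal muscle markers summed to between 2752 and 3390 CPM in rIL-31 samples and between 3830 and 4065 CPM in saline samples. At an FDR below 0.1, 1 of the 5 was lower, against 3.73% of all tested genes. It was Myh4, which averaged 316 CPM in rIL-31 samples and 784 CPM in saline samples. Acta1, Ckm, Mylpf and Tnnt3 did not pass, with FDRs between 0.262 and 0.684 in edgeR's quasi-likelihood test. The 4 melanocyte markers summed to between 198 and 203 CPM in rIL-31 samples and between 442 and 473 CPM in saline samples. In bulk tissue, fewer cells of a type and less RNA per cell cannot be told apart.

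**Figure D2:**
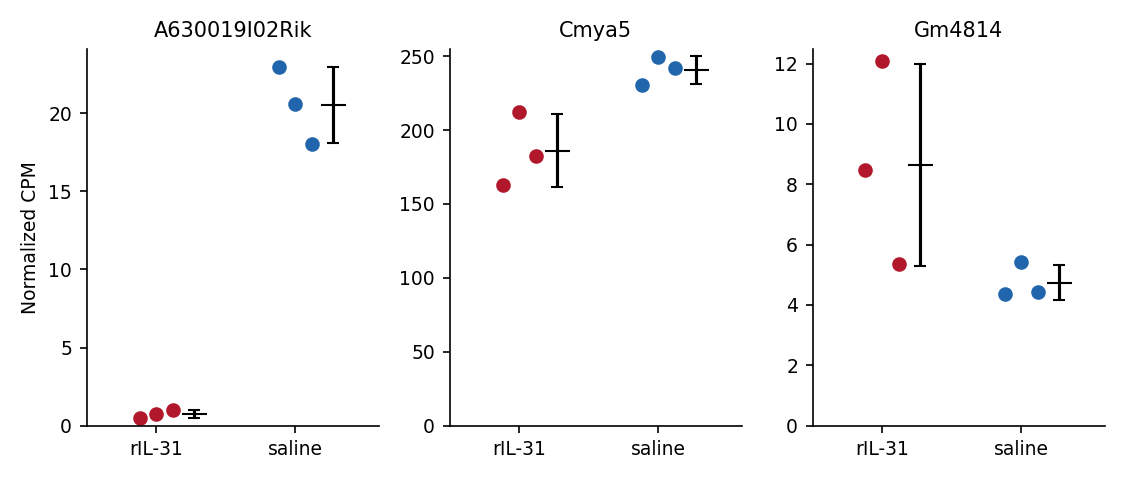
Normalized CPM of A630019I02Rik, Cmya5 and Gm4814 in each library (points), with the mean and SD of each group of 3 beside them; each panel has its own linear axis from 0. A630019I02Rik averaged 0.744 CPM in rIL-31 samples against 20.5 CPM in saline samples, while Cmya5 averaged 186 CPM against 241 CPM.

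Cmya5, on the opposite strand of the same sequence, differed far less. It had 163, 212 and 183 CPM in rIL-31 samples, against 230, 250 and 242 CPM in saline samples. The groups did not overlap, as was the case for 25.7% of all tested genes. Its log2 fold change was -0.37 (SE 0.12) and missed the threshold with an FDR of 0.105 in edgeR's quasi-likelihood test. This call was close to the threshold, since DESeq2 gave an FDR of 0.0441 and offsets for GC content and length gave -0.13 with an FDR of 0.507. Per kb of transcript, Cmya5 stood at 15.7 CPM in rIL-31 samples and 20.3 CPM in saline samples, above A630019I02Rik in both groups. Here A630019I02Rik was divided by all its 2990 bases. Whether reads from the 2451 bases shared with Cmya5 were counted for it is not known. If they were not, its level per kb is understated, so this order is uncertain.

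The counts can also be read as a share of the pair, which does not depend on the scaling of the libraries. A630019I02Rik took 0.31%, 0.353% and 0.53% of the counts of A630019I02Rik and Cmya5 together in rIL-31 libraries, with 95% Wilson intervals from 0.178% to 0.542%, from 0.223% to 0.557% and from 0.359% to 0.781%. In the saline libraries it took 9.06%, 7.63% and 6.94%, with intervals from 8.36% to 9.81%, from 6.99% to 8.31% and from 6.3% to 7.64%. The means were 0.398 ± 0.116% in rIL-31 samples and 7.87 ± 1.08% in saline samples (SD, n = 3 each). A630019I02Rik thus had a lower share of the pair in every rIL-31 library than in any saline library. The shares use the same counts for which the gene was chosen, so they are a description and no separate support. How reads were divided within the pair is not known.

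Gm4814, a further noncoding RNA antisense to Cmya5, stood on the other side. It starts 21.5 kb before A630019I02Rik on the same strand, and 119 of its 964 exon bases lie within Cmya5 exon 6. It had 8.46, 12.1 and 5.37 CPM in rIL-31 samples, against 4.37, 5.42 and 4.43 CPM in saline samples. The groups overlapped, as rIL-31 replicate 3 lay just under saline replicate 2. The log2 fold change was 0.86 (SE 0.29), with an FDR of 0.126 by edgeR's quasi-likelihood method. It was called higher with DESeq2 (FDR 0.0791) and without rIL-31 replicate 3 (1.11, FDR 0.00969), but was at 0.53 without rIL-31 replicate 2 (FDR 0.364) and at 0.78 with limma-voom (FDR 0.207). As a share of its counts and those of Cmya5, Gm4814 took 4.93%, 5.38% and 2.86% in rIL-31 libraries, with Wilson intervals from 4.31% to 5.64%, from 4.81% to 6.01% and from 2.42% to 3.37%. The saline libraries had 1.86%, 2.13% and 1.8%, with intervals from 1.54% to 2.25%, from 1.79% to 2.53% and from 1.47% to 2.19%. All 3 rIL-31 shares were above the saline shares, with a two-sided exact permutation p of 0.1, the smallest that 3 samples against 3 allow.

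**Figure D3:**
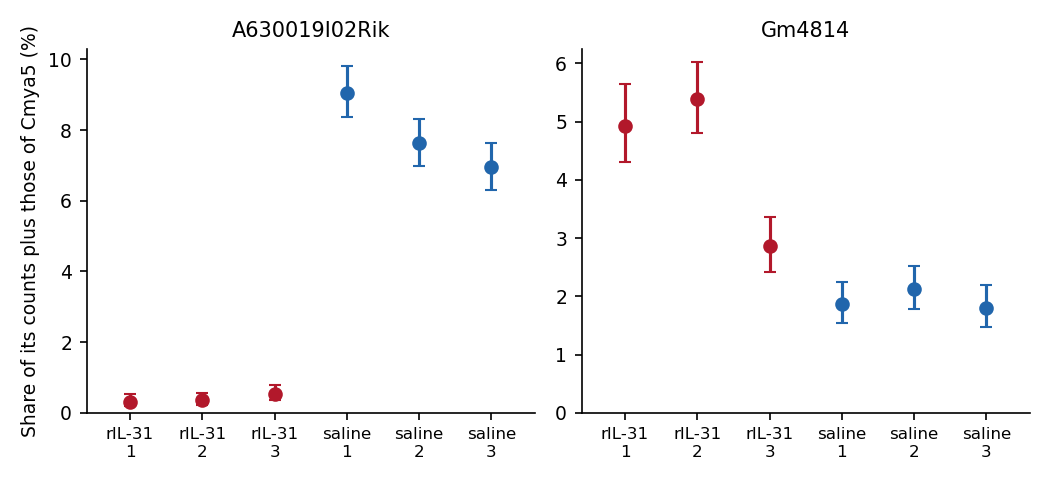
Share (%) of the counts of each antisense RNA in the sum of its counts and those of Cmya5, by library, with 95% Wilson intervals. For A630019I02Rik the rIL-31 libraries lie between 0.31% and 0.53% and the saline libraries between 6.94% and 9.06%, while for Gm4814 the rIL-31 libraries lie above the saline libraries.

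Summed over Cmya5 and both antisense RNAs, the region held 195 ± 27.2 CPM in rIL-31 samples and 266 ± 9.06 CPM in saline samples (SD, n = 3 each). Of the mean difference of -70.4 CPM, A630019I02Rik made up -19.8 CPM and Cmya5 -54.6 CPM, while Gm4814 added 3.9 CPM. Of the 3, A630019I02Rik had the largest relative difference, which reflects how it was chosen. The largest difference in CPM was listed under Cmya5, which did not pass the test.

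Of the 8 genes within 500 kb, 1 fell, none rose and 7 did not pass the test, where 8.24% of all tested genes were called, 4.51% higher and 3.73% lower. With so few genes, 1 of 8 cannot be read as a difference from that share. At an unadjusted p below 0.05 in the edgeR test, 1 neighbour was higher and 3 were lower, where 3200 of all 16371 tested genes passed in either direction. At an FDR below 0.1, limma-voom called 0 higher and 2 lower, against 690 higher and 631 lower of all 16371 genes. DESeq2 called 1 higher and 2 lower, against 972 higher and 857 lower of the 19733 genes it tested. Called at the same FDR and more than 2-fold, the neighbours numbered 0, against 1.84% of all tested genes, 1.15% higher and 0.696% lower. In 3 of the 8 (Cmya5, Mtx3 and Homer1) the groups did not overlap, all with rIL-31 lower, against 25.7% of tested genes in either direction and 12.9% with rIL-31 lower. The median log2 fold change of the neighbours was -0.16, against 0.01 over all tested genes, and their values ran from -0.49 to 0.86. With offsets for GC content and length, Cmya5, Mtx3 and Homer1 were at -0.13, -0.27 and -0.05. Without the offsets they were at -0.37, -0.49 and -0.32.

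The gene that fell was Mtx3, which encodes metaxin 3, a protein of the mitochondrial outer membrane, and which ends 237 kb before A630019I02Rik. It had 25.1, 26.7 and 20.1 CPM in rIL-31 samples, against 34.7, 32.9 and 33.5 CPM in saline samples, with no overlap. Its log2 fold change was -0.49 (SE 0.14, FDR 0.071 in edgeR's quasi-likelihood test). The call was lost after correction for GC content and length (-0.27, FDR 0.402) and without rIL-31 replicate 1 or any one of the saline replicates, with FDRs between 0.133 and 0.24.

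The nearest gene on the other side, Tent2, is a poly(A) polymerase of the cytoplasm, and its annotated end lies 46.9 kb beyond A630019I02Rik. It had 50.4, 59.3 and 68.4 CPM in rIL-31 samples, against 62.9, 69.1 and 66.2 CPM in saline samples, so the groups overlapped. Its log2 fold change was -0.15 (SE 0.13, FDR 0.567 in the same edgeR test). Homer1, a scaffold protein of synapses, lies 205 kb away and had 36.0, 33.2 and 34.8 CPM in rIL-31 samples, against 37.4, 43.5 and 49.1 CPM in saline samples. All rIL-31 samples were below the saline samples, but the difference of -0.32 (SE 0.13) did not pass, with an FDR of 0.201 in edgeR's quasi-likelihood test. With offsets for GC content and length, the difference for Homer1 was -0.05 (FDR 0.882 in the same edgeR test).

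The other neighbours did not pass the test. Jmy, an actin nucleator that also acts with p53, averaged 126 ± 21.5 CPM in rIL-31 samples and 141 ± 5.83 CPM in saline samples (SD, n = 3 each), with a log2 fold change of -0.16 (SE 0.13). Thbs4, the matrix glycoprotein thrombospondin 4 of tendon and muscle, averaged 61.5 ± 13.3 CPM in rIL-31 samples and 56.7 ± 4.04 CPM in saline samples, a log2 fold change of 0.12 (SE 0.16). Serinc5, a membrane protein known in human cells to lower the infectivity of retroviruses, averaged 229 ± 23.9 CPM in rIL-31 samples and 232 ± 18.5 CPM in saline samples, a log2 fold change of -0.02 (SE 0.11). The FDRs of these 3 genes lay between 0.561 and 0.957 in edgeR's quasi-likelihood test, and their signs turned in some of the alternative fits.

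Per kb of the full annotated transcript, the locus genes could also be compared in level. The place of A630019I02Rik is uncertain, since reads from the bases it shares with Cmya5 may not have been counted for it. In rIL-31 samples A630019I02Rik, at 0.249 CPM per kb, was the lowest of the 9, below Mtx3 at 3.82 and Homer1 at 6.07 CPM per kb. In saline samples it stood at 6.87 CPM per kb, between Homer1 at 7.58 and Mtx3 at 5.37 CPM per kb, and above Gm4814 at 5.21 CPM per kb. The highest in both groups was Serinc5, at 42.8 CPM per kb in rIL-31 samples and 43.3 CPM per kb in saline samples.

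**Figure D4:**
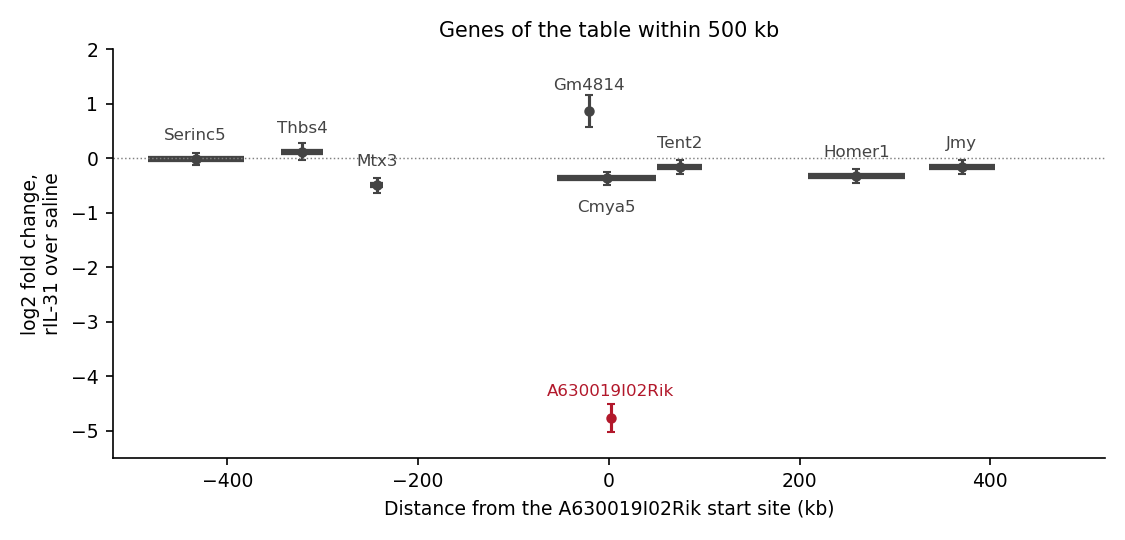
Log2 fold change (rIL-31 over saline, points with SE; thick lines span each gene) against the distance in kb from the A630019I02Rik start site for the 9 genes of the table in the window. A630019I02Rik stands at -4.77, and the 8 neighbours lie between -0.49 and 0.86.

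Skeletal muscle genes were examined because Cmya5 is one of them. Of 24 listed genes, all tested, 5 fell, 1 rose and 18 did not pass. This was 6 of 24 called, against 8.24% of all tested genes, 4.51% higher and 3.73% lower. The median log2 fold change of the list was -0.17, against 0.01 over all tested genes. The list was chosen with earlier results of these data known and its genes share a tissue, so these counts are a description. The gene that rose was Mb, which encodes myoglobin, at 0.38 (SE 0.11). Pvalb, the calcium buffer parvalbumin of fast fibers, had 122, 98.7 and 83.6 CPM in rIL-31 samples, against 172, 184 and 164 CPM in saline samples. Myh4, the myosin heavy chain of the fastest fibers, was at a log2 fold change of -1.31 (SE 0.28, FDR 0.0247 in edgeR's quasi-likelihood test), the lowest of the list. Xirp2, which binds actin at the fiber's junctions, and Actn3, the fast-fiber actinin, were both at -0.65, with FDRs of 0.0195 and 0.0262 in the same edgeR test. Actn3 lost its call without saline replicate 2 (FDR 0.155). With offsets for GC content and length, Xirp2 was at -0.33 and Actn3 at -0.77. The abundant actin gene Acta1, at 1508, 1588 and 1497 CPM in rIL-31 samples and 1420, 1783 and 1717 CPM in saline samples, overlapped between the groups. The log2 fold changes of the list ran from -1.31 to 0.38.

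Among noncoding RNAs, A630019I02Rik had the lowest log2 fold change, which reflects how it was chosen. RefSeq lists 1834 of the genes of the table as lncRNA or antisense RNA. Besides A630019I02Rik, 679 of them were tested, of which 3 rose, 15 fell and 661 did not pass. This was 2.65% called, against 8.24% of all tested genes. The groups did not overlap in 20.2% of these noncoding genes, against 25.7% of all tested genes. Expression levels were not matched between the sets, so the lower share called is not read as a weaker response. The lowest log2 fold change of the others was -2.35, for Gm17762, which did not pass, with an FDR of 0.171 by edgeR's quasi-likelihood method. It had 0.212, 0 and 0.7 CPM in rIL-31 samples, against 0.924, 1.52 and 2.33 CPM in saline samples. By level per kb, A630019I02Rik was 548th of 611 noncoding genes with a known transcript length in rIL-31 samples and 88th in saline samples. These ranks use its full annotated length and are uncertain, since it is not known whether reads from the bases shared with Cmya5 were counted for it.

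**Figure D5:**
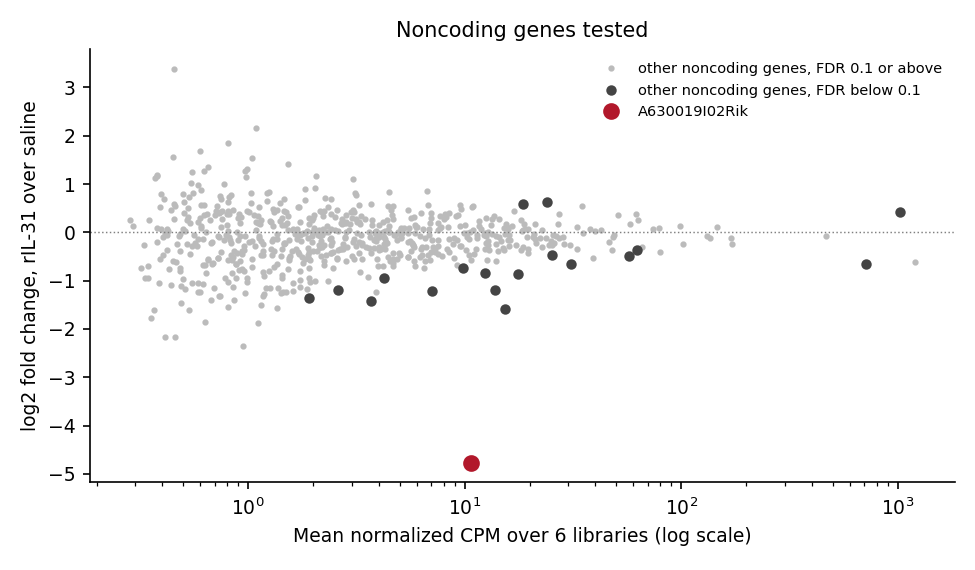
Log2 fold change (rIL-31 over saline) against the mean normalized CPM over the 6 libraries (log axis) for the tested noncoding genes; dark points passed an FDR of 0.1. A630019I02Rik (red) lies at -4.77, below all 679 others, the lowest of which is at -2.35.

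The noncoding RNAs that rose did so by less than 2-fold. They were 4930562F07Rik at a log2 fold change of 0.62 (SE 0.17), Snhg11, a host gene of small nucleolar RNAs, at 0.60 (SE 0.17), and Neat1, the scaffold RNA of nuclear paraspeckles, at 0.43 (SE 0.12). Neat1 averaged 1178 ± 161 CPM in rIL-31 samples and 876 ± 60.3 CPM in saline samples (SD, n = 3 each). The falls with the lowest values at a mean of at least 0.5 CPM were Tsix at -1.60 (SE 0.41), Gm19434 at -1.41 (SE 0.41), Gm9958 at -1.37 (SE 0.40), Msx1os, which lies opposite the homeobox gene Msx1, at -1.21 (SE 0.24) and E130102H24Rik at -1.19 (SE 0.34). Of these 8 genes, Msx1os alone kept its call in all 6 fits that left out 1 library.

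A closer class is that of genes which GENCODE annotates as antisense. Of the 211 others tested, 0 rose and 5 fell in edgeR's quasi-likelihood test. This was 2.37% called, against 8.24% of all tested genes, 4.51% higher and 3.73% lower. In 18.0% of these antisense genes the groups did not overlap, against 25.7% of all tested genes, again without matching of levels. At an unadjusted p below 0.05 in that test, 8 were higher and 16 lower, where 3200 of all 16371 tested genes passed in either direction. DESeq2 called 2 higher and 6 lower of the 377 antisense genes it tested, against 972 higher and 857 lower of all 19733. Limma-voom called 0 higher and 5 lower of 211, against 690 higher and 631 lower of all 16371. The 5 that fell in edgeR's test were Tsix, Gm19434, 1700034H15Rik, Gm15441 and Kcnq1ot1. For 4 of these, a protein-coding gene on the opposite strand was also tested. It fell with the antisense RNA in 2 cases and did not pass in the other 2. 1700034H15Rik was at -1.19 and its partner Slc30a1, a zinc exporter gene, at -0.62 (FDR 0.0372 in the same edgeR test). Gm15441 was at -0.65 and its partner Txnip, which binds thioredoxin, at -0.69 (FDR 0.00617 in the same edgeR test). The imprinting RNA Kcnq1ot1 was at -0.49 and the potassium channel gene Kcnq1 at 0.49 (FDR 0.563 in the same edgeR test). Gm19434 was at -1.41 and Hebp1, a heme-binding protein gene, at 0.20 (FDR 0.659 in the same edgeR test). The pair of A630019I02Rik and Cmya5, at -4.77 and -0.37, had a wider gap than these 4, which reflects how A630019I02Rik was chosen. In each pair overlapping exons may share reads.

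The genes whose pattern over the 6 libraries was most like that of A630019I02Rik were found by Pearson's r of log2 CPM among 15212 genes with a mean of at least 1 CPM. They were Tyrp1 (r = 0.999), Xrn1 (0.999), Chd6 (0.998), Foxn3 (0.998), Zfp704 (0.997) and Zfp398 (0.996). The 6 libraries form 2 groups, so such a value mostly says that a gene was lower in all rIL-31 samples, and 33 genes had an r above 0.99. Tyrp1, a pigment enzyme gene of melanocytes, had 53.7, 56.9 and 59.97 CPM in rIL-31 samples, against 146, 137 and 138 CPM in saline samples. Xrn1, the exonuclease that degrades uncapped RNA, had 8.04, 8.65 and 8.79 CPM in rIL-31 samples, against 20.3, 20.3 and 19.4 CPM in saline samples. Their falls were much smaller than that of A630019I02Rik, the largest of the 6 being the 2.67-fold lower level of Zfp398. Of the neighbours, Cmya5 (r = 0.87) was 941st and Mtx3 (r = 0.86) 1047th in this order, while Gm4814 had an r of -0.77.

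By the distance between centred log2 profiles, which also takes the size of the fall into account, the 6 most alike were other genes, with none in common. They were Sftpb, Hc, D830031N03Rik, Zbed6, Nrg1 and Zim1. Sftpb, surfactant protein B of the lung, had 0, 0 and 0.467 CPM in rIL-31 samples, against 2.86, 2.56 and 2.24 CPM in saline samples. Hc, the gene of complement C5, had 0.296, 0.0418 and 0.0778 CPM in rIL-31 samples, against 3.19, 2.39 and 1.31 CPM in saline samples. D830031N03Rik had 2.2, 3.8 and 2.45 CPM in rIL-31 samples, against 18.1, 15.3 and 16.7 CPM in saline samples. The group means of Zbed6 and Nrg1, which encodes neuregulin 1, were 5.48- and 6.17-fold lower in rIL-31 samples. Zim1, an imprinted zinc finger gene, had 0.127, 0 and 0.739 CPM in rIL-31 samples, against 4.96, 1.6 and 2.19 CPM in saline samples. The size of the difference for Zim1 and Sftpb moved with single libraries, while both stayed lower in every fit without 1 library. The log2 fold change of Zim1, -3.29, was -5.42 without rIL-31 replicate 3 and -2.68 without saline replicate 1, and its call was lost in 4 of the 6 fits without 1 library. That of Sftpb, -3.95, was -8.89 without rIL-31 replicate 3, and its call was also lost in 4 of these 6 fits. Without a saline replicate it stayed between -4.04 and -3.87. The fits without a saline replicate called 171 to 268 of all tested genes lower, against 610 in the main fit. None of the 12 genes lies on chromosome 13.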

How the data were processed

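RNA from 3 rIL-31-treated and 3 saline-treated skin samples was sequenced. A table of raw counts was deposited, with whole numbers of reads for each gene and library. Per the submitters' processing notes, the tools were TopHat, DESeq, CASAVA (version 1.8) and bcl2fastq, and the build mm10. How reads were counted, on which annotation and whether by strand is not given in the sources used here.
Names, positions and promoters came from RefSeq (GRCm38.p6), in which 85 of 24061 gene numbers had no name, and exons and transcripts from GENCODE M21 (GRCm38). These 85 stayed in the library sizes. Counts were filtered (filterByExpr, minimum count 10), scaled by TMM and tested with edgeR 4.0.16 (R 4.3.3), with treatment as the only term and Benjamini-Hochberg adjustment. The test was tried on simulated data with 200 changed genes. Pairs of libraries differed by a chi-square per degree of freedom of 8.95 or more, so none was counted as a duplicate.
Named genes were A630019I02Rik, its neighbours, the 6 most alike by each measure (mean CPM of at least 1), the 5 noncoding genes with the largest called rise and fall, the 4 muscle genes with the smallest p, and Nnt; others were named after their values were seen. The members and lists were chosen with earlier results of these data known. Alternatives were DESeq2 1.42.0, limma-voom (limma 3.58.1), other normalizations and filters, offsets for GC content and transcript length (mgcv 1.9.3), a replicate block, 1 library left out, other windows, thresholds, prior counts and likeness measures.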

Additional observations from a re-analysis of the deposited data

How the results depend on the processing

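The log2 fold change of A630019I02Rik stayed between -4.79 and -4.63 under the normalizations, filters, tools and prior counts tried, and between -5.01 and -4.56 with 1 library left out. The number of the 8 neighbours called, 1, was 3 with DESeq2, 2 with upper-quartile normalization, limma-voom, no filter or at least 10 counts in every library, and 0 after the GC and length offsets, at an FDR below 0.05 or at more than 2-fold. It was 3 of 15 in a window of 1000 kb, against 8.24% of all tested genes, and 0 to 3 with 1 library left out. Noncoding genes called, 18 of 679 tested, numbered 32 of 1294 with DESeq2, 7 at an FDR below 0.05 and 6 at more than 2-fold. Over all tested genes, DESeq2 called 972 higher and 857 lower of 19733. In the main fit, 4.91% of all tested genes passed an FDR below 0.05 and 1.84% passed at more than 2-fold. With 1 library left out, the noncoding genes called numbered 5 to 80, with 80 without rIL-31 replicate 3 and 5 without saline replicate 2. Over all genes, the fit without rIL-31 replicate 3 called 2050 higher and 1968 lower. That without saline replicate 2 called 246 higher and 171 lower. Muscle genes called, 6, numbered 1 at more than 2-fold and 3 to 10 with 1 library left out, the extremes again without saline replicate 2 and rIL-31 replicate 3. What caused these shifts was not tested. None of the 6 genes most alike by r was among the 6 by distance (0 shared), and 5 were shared with a prior count of 0.5.
Replicate numbers are shared between the groups, but deviations of same-numbered libraries correlated at 0.08, -0.02 and 0.22, so the samples were not taken as paired. With the replicate block, 3 neighbours and 40 noncoding genes were called, and 41 noncoding genes with the block and the GC and length offsets together. Over all tested genes, the main fit called 739 higher and 610 lower, and the block 1177 higher and 1096 lower. With block and offsets together, 1316 were higher and 707 lower. The GC and length offsets alone moved the share of higher calls among all genes called to 66.8%, against 54.8%.
Signs turned for 3 neighbours that were never called. With the offsets, Serinc5 was at 0.0755 and Jmy at 0.0728. With offsets and replicate block, Serinc5 was at 0.0746, Jmy at 0.0680 and Thbs4 at -0.00433. With 1 library left out, Serinc5 ranged from -0.0802 to 0.0654 and Thbs4 from -0.0345 to 0.274. Over 32 named genes and 477 alternative values, 400 kept direction and call, 57 lost and 12 gained a call, and 8 changed sign. Depth limits A630019I02Rik in rIL-31 samples, where it rests on 12 to 25 counts a library.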

Other observations

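Farther along chromosome 13, between 500 kb and 1000 kb from A630019I02Rik, 3 genes were named after their values were seen. Lhfpl2, a tetraspan membrane protein gene, had 23.6, 21.0 and 23.3 CPM in rIL-31 samples, against 36.3, 34.4 and 32.8 CPM in saline samples, a log2 fold change of -0.61 (SE 0.12, FDR 0.0183 in edgeR's quasi-likelihood test). Rasgrf2, an exchange factor for Ras, had 2.84, 1.42 and 3.11 CPM in rIL-31 samples, against 3.99, 7.59 and 6.2 CPM in saline samples (-1.27, SE 0.36, FDR 0.0743 in the same edgeR test). Ankrd34b, an ankyrin repeat gene, had 0 counts in each rIL-31 library, against 15, 9 and 13 counts in the saline libraries, and was removed by the filter on low counts, so it has no test.
Xist, the RNA that silences an X chromosome in female cells and the partner of Tsix, had 498, 511 and 654 CPM in rIL-31 samples, against 865, 896 and 875 CPM in saline samples, a log2 fold change of -0.66 (SE 0.12, FDR 0.0109 in edgeR's quasi-likelihood test). Tsix had 2.67, 13.2 and 7.0 CPM in rIL-31 samples, against 27.3, 21.2 and 20.9 CPM in saline samples, and its FDR was between 0.134 and 0.163 when a saline replicate was left out. Their genes overlap on opposite strands, so without strand their reads cannot be told apart.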
